A study of Sus scrofa domesticus with 4 samples.

Results

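Blood vessel lining in the uterine muscle was followed through 9 genes: PECAM1, ENG, VCAM1, ICAM1, SELE, SELP, ACKR1, VWF and NOS3. They were taken as all non-control probes of a pig expression array whose RefSeq accession belongs to one of these genes. This gave 14 probes for all 9 genes, of 43603 probes and 3029 named genes on the array. The tissue was pig myometrium, that is uterine smooth muscle, kept as explants and measured on 4 Agilent arrays with 2 dyes. Each array compared an explant given adiponectin (a fat-derived hormone) at 10 µg/ml for 24 h with an explant left untreated. Both kinds of explant were held in medium for 2 h beforehand and came from 4 mature Large White x Polish Landrace gilts of 7 to 8 months in early pregnancy, at gestation days 15 to 16. The labels tie no array to a gilt and leave unsaid if its RNA pair had a single donor animal. The p-values therefore reflect only how these 4 arrays vary, and some of that variation may be technical.

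Endothelial cells line the vessels and carry a set of surface proteins by which blood cells are recognised and captured. In an inflamed vessel, selectins slow passing leukocytes, chemokines held at the surface activate their integrins, the ligands VCAM1 and ICAM1 hold them fast, and PECAM1 at the cell junctions takes part in their passage through the wall. Adiponectin is known for acting on cultured endothelial cells, where it raises nitric oxide production and lowers adhesion molecules induced by inflammatory cytokines. The question put to these data was what the hormone did to such genes in whole myometrial tissue. In tissue, fewer cells of a type and less RNA per cell cannot be told apart.

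The share of spots well above background was 47.0% to 63.1% in the adiponectin channel and 46.1% to 56.5% in the untreated channel. Of the 14 probes, 11 were tested, at least 1 for each of the 9 genes. A probe entered the test if 1 of its channels, adiponectin or untreated, was well above background on 3 or more of the 4 arrays. No spot of the 14 probes was saturated or marked as an outlier feature. The local background was marked as an outlier in 1 channel for ENG on array 1 and for VCAM1 on arrays 1, 2 and 3. The same held for SELE probe A_72_P035596 on arrays 1 and 2, and SELP on array 1 was marked in both channels. Other endothelial markers were measured as well: CDH5, the cadherin of endothelial junctions, CLDN5, a claudin of endothelial tight junctions, and CD34 were well above background in both channels on all 4 arrays. The tissue's own markers were bright too, with a summed signal of 7 smooth muscle genes between 316878 and 490474 in the adiponectin channel and between 270039 and 563069 in the untreated channel. Across tested probes, the array ratios did not run together: over probes, which are not independent replicates, the lowest Pearson's r of a pair was -0.31 (arrays 2 and 3) and the highest 0.25 (arrays 2 and 4).

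For none of the 9 genes did the difference between adiponectin and untreated explants pass the test. The lowest fitted values belonged to ACKR1, ENG and VCAM1, at log2 changes of -0.59, -0.45 and -0.42, and the highest to PECAM1, at 0.35. By the probe of highest signal, 5 genes were below 0 and 4 above, with a median of -0.13, against a median of -0.02 and 54.4% below 0 for the 2134 named genes tested. With limma, 0 of the 11 probes passed at an adjusted p of 0.05, and so did 0 of all 22128 tested probes (0%), with 0.856 as the smallest adjusted p. Without adjustment, limma's p was under 0.05 for 3 of the 11 probes, those of ENG, ACKR1 and VCAM1, all below 0. By the probe of highest signal, that count of 3 genes was 1 without array 1 or array 2 (VCAM1), 1 without array 4 (ACKR1), 1 with no dye term (ENG) and 0 with no filter on dim probes, and without array 3 it was 3, with SELP above 0 in the place of VCAM1. The background at that threshold was 5.71% of all tested probes, 3.79% higher and 1.92% lower. A ratio below 0 on at least 3 of the 4 arrays was found for 4 of the 11 probes (ENG, VCAM1, ACKR1 and VWF), against 31.9% of all tested probes. These genes were chosen with earlier results of the data known, so this count is a description and no support for a shared response.

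**Figure D1:**
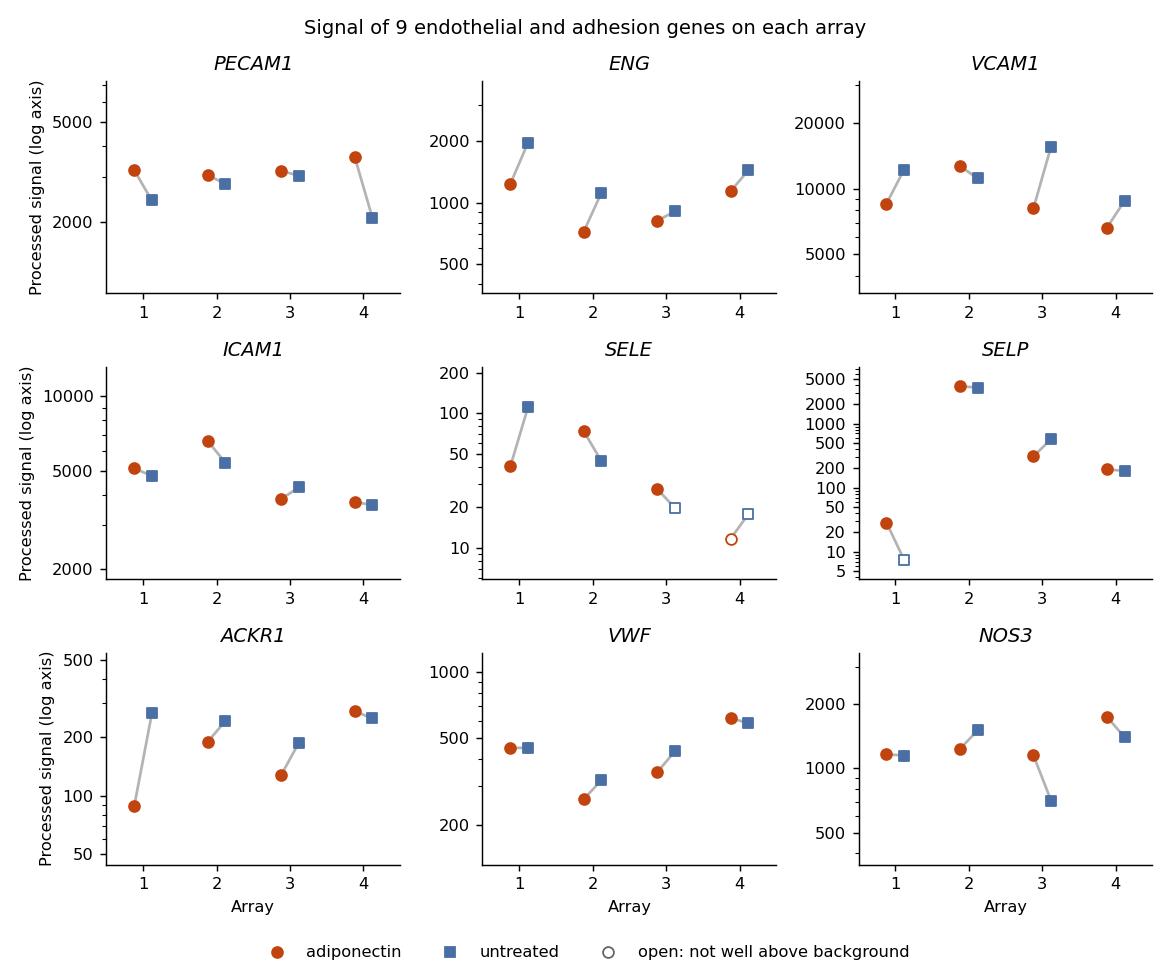
Processed signal (log axis) of the adiponectin channel (circles) and the untreated channel (squares) on each of the 4 arrays, for the probe of highest signal of each gene; open symbols were not well above background and grey lines join the channels of an array. ENG was lower with adiponectin on every array, while SELP spanned 182 to 3635 in the untreated channel of arrays 2 to 4.

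PECAM1 (NM_213907), the adhesion molecule of endothelial junctions also found on platelets and leukocytes, had 3 probes, which disagreed. The brightest, A_72_P218027, had signals of 3205, 3071, 3192 and 3624 with adiponectin on arrays 1 to 4, and of 2430, 2825, 3044 and 2080 in untreated explants. The adiponectin signal was the higher on all 4 arrays. As processed signals the channels did not overlap as groups, by the narrow margin of 3071 against 3044. With signals divided by a percentile of the untreated channel of their array (log2), the groups overlapped. These levels ran from 0.86 to 1.35 with adiponectin and from 0.46 to 1.03 in untreated explants. The log2 change of A_72_P218027 was 0.35 ± 0.17 (SE, n = 4 arrays), a 1.27-fold ratio with a 95% interval from 0.95 to 1.71 (limma adjusted p = 0.856). The array ratios ran from 0.07 on array 3 to 0.80 on array 4, and with array 4 left out the value was 0.18. The other probes, A_72_P077376 and A_72_P446708, gave log2 changes of 0.03 ± 0.20 and 0.06 ± 0.20. Both had ratios below 0 on arrays 1 and 2 (-0.30 and -0.37 for A_72_P077376, -0.34 and -0.24 for A_72_P446708) and above 0 on arrays 3 and 4. The mean over the 3 probes was 0.15, so the size of the PECAM1 value rests on which probe stands for the gene.

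ENG (NM_214031) encodes endoglin, a co-receptor for TGF-beta and BMP ligands of endothelial cells. Its signals were 1233, 723, 817 and 1138 with adiponectin on arrays 1 to 4, and 1958, 1119, 906 and 1439 in untreated explants. The adiponectin signal was the lower on every array, although the values of the 2 groups overlapped between arrays. The log2 ratios were -0.67, -0.63, -0.15 and -0.34, and the dye coefficient was 0.04, which means that both dye orientations gave nearly the same mean. The fitted log2 change was -0.45 ± 0.16 (SE, n = 4 arrays), a ratio of 0.73 with a 95% interval from 0.56 to 0.96 and an unadjusted p of 0.0308 (limma adjusted p = 0.856). A ratio of the same sign on all 4 arrays was found for 2 of the 11 probes, this one and the brightest of PECAM1, and for 12.6% of all tested probes. With normexp background correction and loess normalisation the ENG value was -0.33, and leaving out 1 array at a time it stayed between -0.58 and -0.32.

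VWF (NM_001246221), the multimeric protein of Weibel-Palade bodies to which platelets adhere, had signals of 450, 262, 348 and 615 with adiponectin on arrays 1 to 4. The untreated signals were 451, 321, 435 and 585. The 2 channels lay close together on every array, and the values varied more between arrays than between channels. Its fitted log2 change, -0.13 ± 0.15, had a 95% interval of -0.50 to 0.23 (limma adjusted p = 0.908). Leaving out 1 array moved it between -0.22 (without array 4) and -0.04 (without array 2), with -0.21 without array 1 and -0.055 without array 3. Its array ratios had an SD of 0.20, no larger than the median error of 0.21 that the authors' deposited files give for the ratio of a single VWF spot. The second VWF probe, A_72_P442685, was not well above background in either channel on any array, with processed signals between 10.3 and 32.2, and gave no test.

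NOS3 (NM_214295), the endothelial nitric oxide synthase, had signals of 1165, 1235, 1153 and 1746 with adiponectin on arrays 1 to 4 and of 1150, 1506, 707 and 1402 in untreated explants. The 2 groups overlapped, and arrays 2 and 3 went opposite ways, with log2 ratios of -0.29 and 0.70. The log2 change was 0.19 ± 0.19, with a 95% interval from -0.27 to 0.65 (limma adjusted p = 0.899), and it was 0.02 without array 3 and 0.04 without array 4. The second NOS3 probe, A_72_P442218, was not well above background in either channel on any array.

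**Figure D2:**
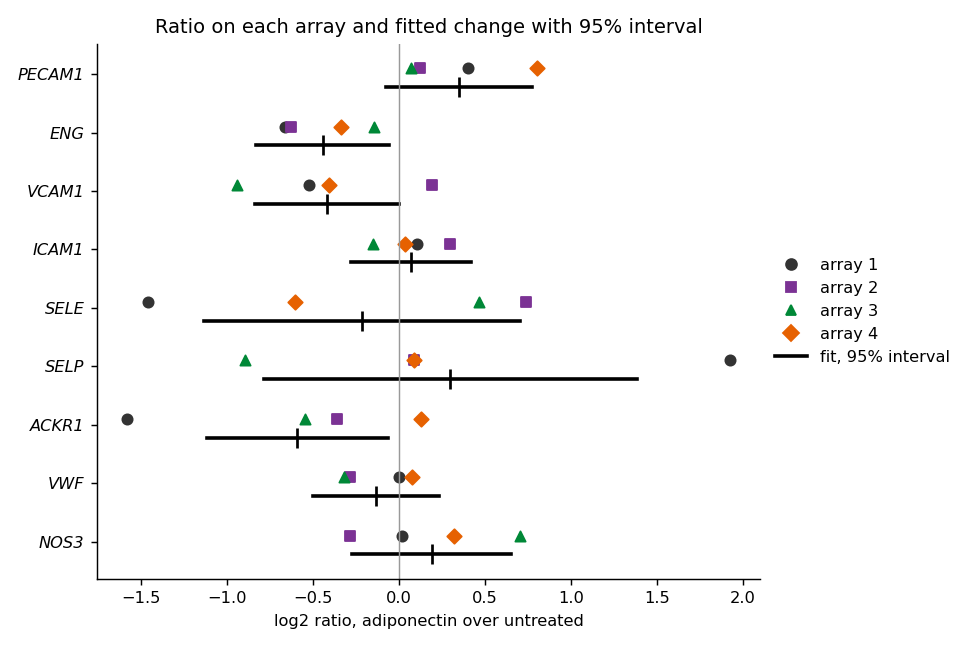
log2 ratio of adiponectin over untreated signal on each array (symbols) and the fitted log2 change (tick) with its 95% interval (bar) for the probe of highest signal of each gene. The intervals of ENG, VCAM1 and ACKR1 lie below 0, that of VCAM1 ending at -0.003, and no adjusted p passed.

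VCAM1 (NM_213891), the ligand of the leukocyte integrin VLA-4, had signals of 8545, 12750, 8132 and 6629 with adiponectin on arrays 1 to 4. In untreated explants the signals were 12266, 11168, 15655 and 8812. The adiponectin signal was the lower on arrays 1, 3 and 4 and the higher on array 2, and the groups overlapped. The log2 ratios were -0.52, 0.19, -0.94 and -0.41, with an SD of 0.47, against an error of 0.21 for a single spot in the authors' deposited files. The log2 change was -0.42 ± 0.17 (SE, n = 4 arrays), a ratio of 0.75 with an interval from 0.56 to 1.00 and an unadjusted p of 0.0490 (limma adjusted p = 0.856). Without array 4, which leaves the slide that held arrays 1 to 3, it was -0.27. The dye coefficient was -0.31, so the arrays with adiponectin RNA in Cy5 gave lower ratios than those with it in Cy3.

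ICAM1 (NM_213816), the ligand of leukocyte beta-2 integrins, had signals of 5111, 6600, 3839 and 3725 with adiponectin and of 4759, 5386, 4274 and 3633 in untreated explants on arrays 1 to 4. The channels stayed close on each array, with log2 ratios of 0.10, 0.29, -0.15 and 0.04. The log2 change was 0.07 ± 0.14, and its interval from -0.28 to 0.42 admits a ratio between 0.82 and 1.34 (limma adjusted p = 0.951). It was 0.005 without array 1 or array 2 and 0.13 without array 3 or array 4. The SD of its array ratios, 0.18, was below the error of 0.20 for a single spot in the authors' deposited files. VCAM1 and ICAM1, which are often induced together by NF-kappaB, thus had unlike fitted values here, and the difference between them was not tested.

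SELE (NM_214268), E-selectin, is made by endothelial cells on activation, and here it was dim. Probe A_72_P035596 was well above background on 3 of 4 arrays with adiponectin and on 2 of 4 in untreated explants. Its signals were 40.3, 73.5, 27.3 and 11.7 with adiponectin on arrays 1 to 4, and 111, 44.1, 19.8 and 17.8 in untreated explants. Array 1 had the lower signal with adiponectin and array 2 the higher one. The log2 ratios were -1.46, 0.74, 0.46 and -0.60, and the fitted value was -0.22 ± 0.37, its 95% interval reaching from -1.13 to 0.70 (limma adjusted p = 0.942). The sign turned to 0.27 without array 1, to 0.12 without array 4 and to 0.02 with normexp and loess. The other probe, A_72_P440056, was well above background on 2 of 4 arrays in each condition and was not tested. It showed the same signs on arrays 1 and 2, with signals of 5.83 against 110 on array 1 and 103 against 44.1 on array 2 for adiponectin against untreated explants. On arrays 3 and 4 its signs were opposite to those of A_72_P035596, with log2 ratios of -0.325 and 0.13. Neither probe had an untreated signal well above background on those arrays. Of the adiponectin signals of A_72_P440056, that of array 1 was not well above background, so the log2 ratio of -4.24 there has no measured lower side.

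SELP (NM_214078) encodes P-selectin, which endothelial cells and platelets store in granules and move to the surface on activation. The SELP signals were 28.4, 3852, 307 and 193 with adiponectin on arrays 1 to 4, and 7.47, 3635, 572 and 182 in untreated explants. Array 2 was bright and array 1 near background in both channels, so the level differed far more between arrays than between channels. On arrays 2 and 4 the log2 ratio was 0.08, and on array 3 it was -0.90. Array 1 gave a ratio of 1.92, but its untreated spot was not well above background. That spot had a median brightness of 77, below the median of 206.5 over the 153 negative control spots in the same channel, and a background-subtracted signal of -140. Only 132 of the 43803 gene spots of array 1 (0.301%) lay below -100 in the untreated channel, a limit chosen after the SELP value was seen. Its local background was also marked as an outlier in both channels, as for 0.644% of the gene spots of that array. The fit gave SELP 0.30 ± 0.44 (log2), with a 95% interval of -0.78 to 1.38 (limma adjusted p = 0.930). Without array 1 it was -0.41 (adjusted p = 0.645), without array 3 it was 1.00, and with normexp and loess it was -0.09.

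ACKR1 (NM_001244095), the atypical chemokine receptor of venular endothelium and red cells that binds inflammatory chemokines without signalling through G proteins, gave the lowest fitted value of the 9 genes on the processed signals of all 4 arrays, while VCAM1 was lower with normexp and loess, without array 1 and without array 2. Its signals were 88.5, 189, 128 and 273 with adiponectin on arrays 1 to 4 and 265, 243, 187 and 250.0 in untreated explants. The adiponectin signal was the lower on arrays 1, 2 and 3, and the groups overlapped through array 4. The log2 ratios were -1.58, -0.36, -0.55 and 0.12. The dye coefficient was -0.47, so arrays 1 and 3, with adiponectin RNA in Cy5, gave lower ratios than arrays 2 and 4, with it in Cy3. The log2 change was -0.59 ± 0.21 (SE, n = 4 arrays), a ratio of 0.66 with an interval from 0.46 to 0.96 and an unadjusted p of 0.0337 (limma adjusted p = 0.856). It was -0.33 without array 1 and -0.32 with normexp and loess, which gave -0.62 on array 1. With no dye term the value stayed at -0.59, with an unadjusted limma p of 0.0646. No erythroid marker of the list was matched to a probe, so the share of red cells in the tissue was not analysed here.

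The authors' deposited files also give a p for each spot from the error of that spot alone, which compares the 2 RNAs of an array and not the treatments. At a p under 0.01, this counted 3, 1, 3 and 1 of the 11 tested probes on arrays 1 to 4, against 13.9%, 14.4%, 12.6% and 9.67% of all tested probes. The spots counted on array 1 were those of ENG, SELE and ACKR1, on array 2 that of ENG, on array 3 those of VCAM1, SELP and NOS3 and on array 4 that of PECAM1. VCAM1 and SELP were below 0 on array 3 and NOS3 above it, and ENG was below 0 on both arrays where it was counted.

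The untreated signal itself differed between arrays more for SELP than for the other genes. Signals were divided by the 75th percentile of the untreated channel of their array, and the range over arrays was taken on the log2 scale. Over arrays 1 to 4 the range was 9.28 for SELP, against a median of 0.97 and a 95th percentile of 2.50 over the 22128 tested probes. With the doubtful spot of array 1 set aside, arrays 2 to 4 spanned 4.36, a 20.5-fold difference, and 64 tested probes (0.289%) spanned more. The range over arrays 1 to 4 was 2.32 for SELE, which was dim on arrays 3 and 4, and 1.26 for NOS3. It was between 0.55 and 0.93 for PECAM1, ENG, VCAM1, ICAM1, ACKR1 and VWF, all under the median. On array 2 both channels held a high SELP signal, and the labels leave unsaid if these RNAs had a single donor gilt.

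**Figure D3:**
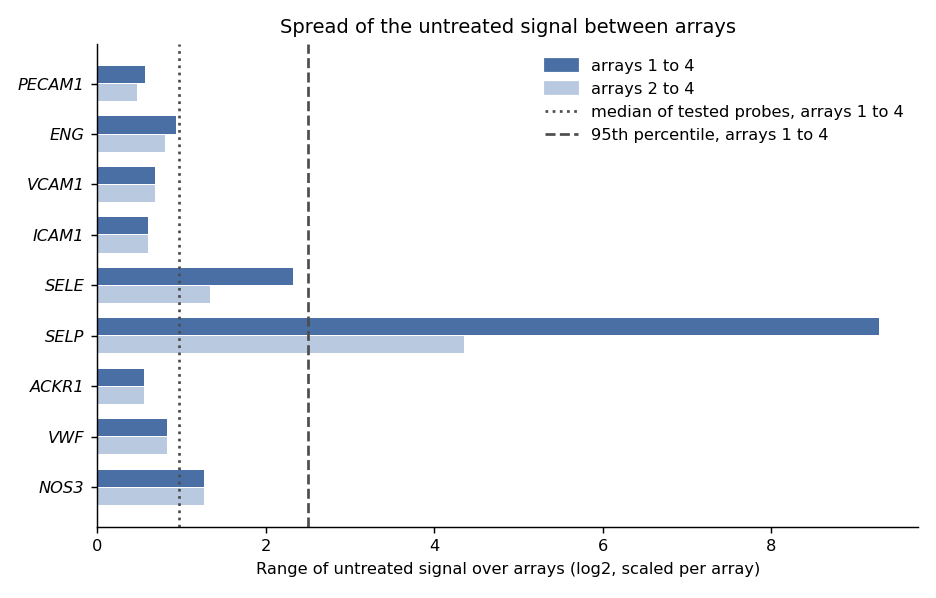
Range of the untreated signal between arrays (log2, each signal divided by the 75th percentile of its array) for the 9 genes, over arrays 1 to 4 (dark bars) and arrays 2 to 4 (light bars), with the median (dotted) and 95th percentile (dashed) of all tested probes over arrays 1 to 4. SELP reaches 9.28 with array 1 and 4.36 without it, and 7 of the other 8 genes stay under 1.3.

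Other genes of the vessel wall did not pass either. Of 43 genes listed for vascular endothelium, 14 were tested, 9 above 0 and 5 below, with a median of 0.14 and 0 past the threshold. CALCRL, the receptor of calcitonin gene-related peptide and adrenomedullin, stood at 0.61 ± 0.16, with array values of 1.08, 0.34, 0.52 and 0.49. Its unadjusted p was 0.00869 (limma adjusted p = 0.856). It was well above background on 4 arrays with adiponectin and on 2 of 4 in untreated explants. CALCRL thus entered the test only through the adiponectin channel, so its value above 0 is no evidence of a difference. ETS1, a transcription factor of endothelium and lymphocytes, stood at 0.32, CDH5 at 0.15, CLDN5 at 0.14 and CD34 at -0.02. By the brightest probe of each gene, ENG, at -0.45, lay below each of these 14 genes, the lowest of which was PROX1 at -0.26. Other probes went lower than PROX1, to -0.32 for SPARC and -0.31 for CD34.

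Genes of leukocyte adhesion and passage gave 9 values above 0 and 5 below among 14 tested, with a median of 0.05 and 0 calls. CXCL8, the neutrophil-attracting chemokine, stood at 0.90 ± 0.28 and ITGAV, an integrin alpha chain, at -0.35 ± 0.13 (limma adjusted p = 0.856 for both). The 5 ITGAV probes ran from -0.35 to -0.04. On the leukocyte side of the contact, SELPLG, the ligand of P-selectin, and ITGAL, a chain of the integrin that binds ICAM1, were well above background on at most 1 array and were not tested. ITGB2, the shared chain of those integrins, stood at 0.22. The haemostasis list had 7 of 12 tested genes above 0 and a median of 0.02, with THBD, the thrombin-binding thrombomodulin, at 0.22 and PROCR, the protein C receptor, at 0.16. Their probes disagreed in sign, from -0.27 to 0.22 for THBD and from -0.26 to 0.16 for PROCR. F8, which travels in blood bound to VWF, was at 0.02.

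Nitric oxide genes other than NOS3 had a median of 0.02, with 7 of 12 above 0 and 0 calls. NOS2, the inducible synthase, stood at -0.47 ± 0.21 and ARG1, the arginase that competes for arginine, at 0.82 ± 0.43. The 4 NOS2 probes ran from -0.71 to -0.16 and the 4 ARG1 probes from 0.35 to 0.82. NF-kappaB components and targets had a median of 0.07, with 12 of 18 above 0 and 0 calls, and TNFAIP3, a feedback inhibitor of NF-kappaB, stood at 0.34. Of the genes of endoglin's pathway, 10 of 12 were above 0, with a median of 0.14 and 0 calls. SMAD4, the common mediator of TGF-beta and BMP signals, stood at 0.35 ± 0.14 by its brightest probe and as low as -0.19 by another, and SMAD2 stood at 0.16. Of these list medians, 4 changed sign when 1 array was left out: leukocyte adhesion (-0.11 without array 4), haemostasis (-0.02 without array 1), nitric oxide (-0.11 without array 1 and -0.07 without array 4) and NF-kappaB (-0.05 without array 3 and -0.02 without array 4). The leukocyte adhesion median was also -0.008 with the slide as a random block, the haemostasis median -0.01 with the mean of all tested probes of a gene, and the nitric oxide median -0.01 with normexp and loess.

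**Figure D4:**
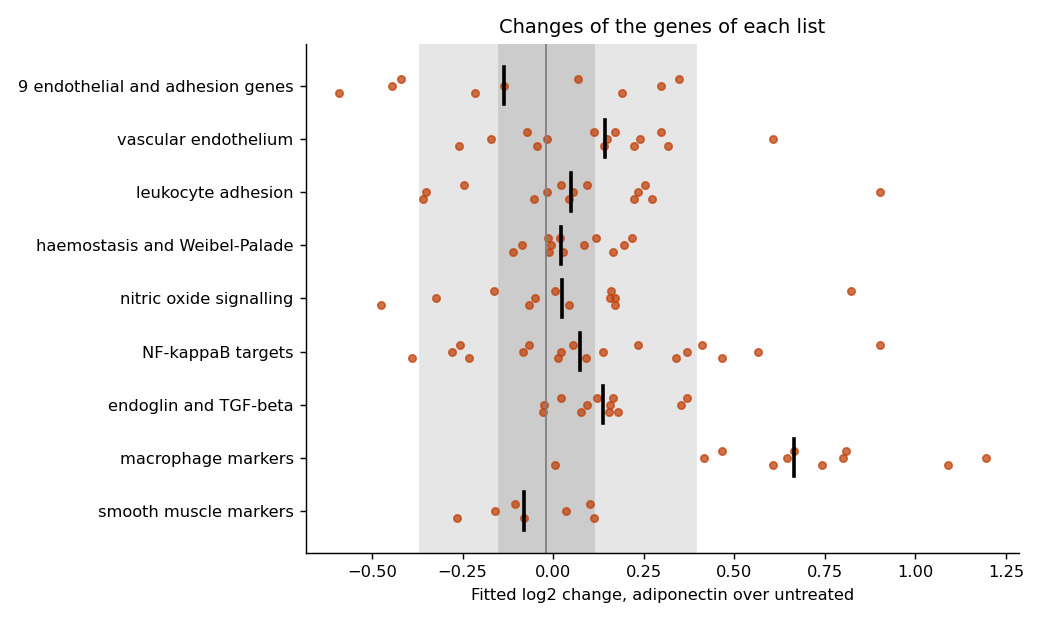
Fitted log2 change of each tested gene (points) and the median (black line) of 9 gene lists, with the median, 25th to 75th percentile (dark grey) and 5th to 95th percentile (light grey) of the 2134 named genes tested. The 9 endothelial and adhesion genes spread from -0.59 to 0.35, while 10 of 11 macrophage markers lie beyond the 95th percentile of 0.39.

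Markers of other cells moved between the channels of single arrays. Macrophage and monocyte markers were all above 0, 11 of 11 tested, with a median of 0.67 and array medians of 0.47, -0.23, 2.10 and 0.63, although 0 passed. VSIG4, a complement receptor of tissue macrophages, stood at 1.20 and CD163, the haemoglobin scavenger receptor, at 1.09. The list's summed signal was between 3154 and 12063 with adiponectin and between 2934 and 7285 in untreated explants. The VCAM1 ratio had the opposite sign to this median on each of the 4 arrays and was lowest on array 3, where the macrophage median was highest. The NOS3 ratio was likewise highest on array 3 and lowest on array 2, where the macrophage median was lowest. Other lists moved with single arrays too. The median of 4 epithelial markers was -0.43, 1.02, -0.83 and 0.84 on arrays 1 to 4, which orders the arrays as VCAM1 does. That of 7 smooth muscle markers was -0.66, -0.15, 0.58 and -0.25, also highest on array 3. These likenesses were seen afterwards, 4 arrays are too few for a correlation, and the part of any of these cell types in the VCAM1 and NOS3 values was not tested. Without array 3 the macrophage median was 0.28, VCAM1 stood at -0.32 and NOS3 at 0.02.

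**Figure D5:**
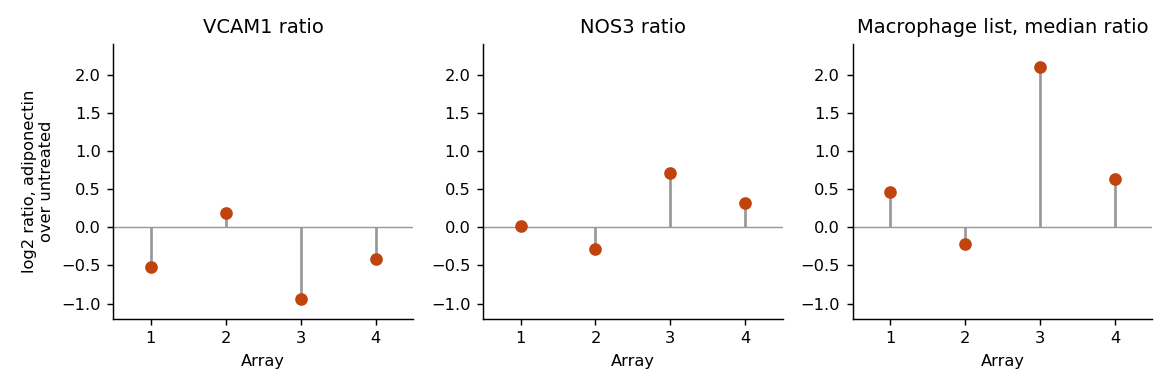
log2 ratio of adiponectin over untreated signal on each array for VCAM1 and NOS3 (1 probe each) and the median ratio of 11 macrophage and monocyte markers. On array 3 the values were -0.94, 0.70 and 2.10, and on array 2 they were 0.19, -0.29 and -0.23.

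Platelets also carry SELP, VWF and PECAM1, and red cells ACKR1. Of 3 tested platelet genes, PPBP stood at 0.93 ± 0.27 with array values of 0.71, 0.08, 2.08 and 0.84, GP9 at -0.11 and ITGA2B at -0.01. GP9 and ITGA2B, of the platelet surface receptors, lay near 0. PPBP was highest on array 3 and lowest on array 2, as was the macrophage median, which was below 0 on array 2. This likeness was seen afterwards, and the part of platelets or macrophages in these values was not tested. The summed platelet signal was between 823 and 1100 with adiponectin and between 726 and 880 in untreated explants. Medians were 0.10 for 4 lymphocyte genes, -0.26 for 4 neutrophil genes, -0.08 for 7 smooth muscle genes, 0.21 for 4 epithelial genes and -0.07 for 4 fibroblast genes, with 0 calls in each list. Leaving out 1 array turned the sign for lymphocyte genes (-0.09 without array 2), smooth muscle genes (0.16 without array 1) and fibroblast genes (0.04 without array 2 and 0.07 without array 3), and the lymphocyte median was -0.01 with normexp and loess. The platelet median of -0.01 also turned, to 0.03 without array 2 and 0.01 without array 3. The pericyte list had 2 tested genes, RGS5 at 0.63 ± 0.30 and ANGPT1 at 0.49. The array values of RGS5 were -0.03, 1.89, 0.51 and 0.14, so its value rested largely on array 2. ASPN, a stromal proteoglycan, stood at 0.98. ANGPT1 and ASPN entered the test only through the adiponectin channel, being well above background on 3 arrays there and on 1 and 2 arrays in the untreated channel, so their values above 0 are no evidence of a difference. Of the other genes of these lists, DCN stood at -0.13, PGLYRP1 at -0.54 and S100A9 at -0.32, LCK at -0.21 and CD3G at 0.44, MYL9 at -0.26 and TPM2 at -0.16, EPCAM at 0.53 and KRT8 at 0.43. CD3G had array values of -0.327, 2.291, 0.04 and -0.225, so only array 2 was far above 0. It was well above background on 2 arrays with adiponectin and on 3 in untreated explants. Of CD3D and CD3E, which encode CD3 subunits of the T-cell receptor complex, and of CD8A, no probe was bright enough for the test.

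Named genes with the most similar ratios over the 4 arrays were sought for ENG and ACKR1, which had the smallest unadjusted p of the 9 genes. By the root mean square difference of the log2 ratios, the nearest of 2133 named genes to ENG were NSDHL (0.10), FBXL4 (0.10) and BSG (0.11), against a median of 0.56 over all. NSDHL, for example, had ratios of -0.74, -0.59, 0.00 and -0.42. For ACKR1 the nearest were GYS1 (0.32), DDO (0.34) and PGA5 (0.34), against a median of 0.91, and none of them came near its -1.58 on array 1, where they lay between -1.16 and -1.07. Likeness over 4 arrays is a description of these arrays.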

How the data were processed

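Per the file headers, spot values came from Agilent's Feature Extraction 10.7.3.1. The log10 ratio of Cy5 over Cy3, the processed signal intensity (background-subtracted and dye-normalised within an array) and its error and p-value per spot are the authors' deposited values, per the file headers. Flags per spot (well above background, outlier, saturated) are other deposited columns. The ratio was divided by log10(2), and its sign was turned on arrays 2 and 4, where the dye fields put adiponectin RNA in Cy3. The labelling text describes only adiponectin RNA in Cy5. The deposited series table of log2 ratios, with scale and centring not given in the sources used here, matched the turned ratios to within 0.01 for 100% of the probes bright in both channels, so it had the same direction. Its column medians were -0.10, 0.13, -0.14 and 0.16. For bright probes nothing of its scale or centring stays unknown. For dim probes it does, and 18.1% to 28.9% of an array's spots had a scanner ratio of exactly 0.

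Spots marked as outlier features were left out, and spots of a probe were averaged. Of 43603 probes, 22128 (50.7%) were tested, after 159 bright enough ones were dropped for a missing value. Ratios were fitted with limma 3.58.1 under R 4.3.3 (lmFit, eBayes) with treatment and, per probe, dye as coefficients (two-sided tests), Benjamini-Hochberg adjusted over all tested probes. An exact sign permutation of 4 arrays cannot go below p = 0.125, so none is given. The number of arrays limits the precision: the median 95% interval was the estimate ± 0.39 (log2). Arrays 1 to 3 shared slide 1 and scan 1, and array 4 had slide 2 and scan 2, with both conditions on every array. Names came from RefSeq accessions through a table of Sscrofa11.1, where 6700 of 7125 probes with such an accession matched. The probe of highest mean signal stood for a gene. Members and lists were chosen with earlier results of these data known, and the text names the 9 members, of each other list the 2 tested genes of smallest unadjusted p, and genes singled out after their values were seen. No sequence is shown because the sources used here gave none for these genes.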

Additional observations from a re-analysis of the deposited data

Results flagged for a closer look

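On array 2, VCAM1 and ICAM1 each had a level apart from those of arrays 1, 3 and 4. Of 27 such groups of 4 values examined, 2 stood out in this way, and about 1.35 would by chance. Levels are log2 signals over the 75th percentile of untreated signal on their array. VCAM1 with adiponectin had a level of 3.20 there, against 2.22 to 2.38 elsewhere, and untreated ICAM1 one of 1.96, against 1.35 to 1.45 elsewhere. Before that division, array 2 was also highest but less far apart. The VCAM1 signal with adiponectin was 12750 there, against 6629 to 8545 elsewhere. Untreated ICAM1 was at 5386, against 3633 to 4759 elsewhere.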

How the results depend on the processing

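Of the 9 genes, PECAM1, ENG, VCAM1, ICAM1, ACKR1, VWF and NOS3 kept their sign under all 12 alternatives, and none of the 9 passed the test under any run (smallest adjusted p = 0.174, for ENG with the slide as a random block). SELE and SELP turned with normexp and loess (0.016 and -0.087), and over the omissions of 1 array they ranged from -0.70 to 0.27 and from -0.41 to 1.00. Over these omissions the median of the 9 genes ranged from -0.214 to 0.038 (without array 4), and the count of probes called higher from 0 to 12, the 12 without array 3, none of them the brightest probe of one of the 9 genes. Over lists and alternatives, 167 other medians lay within the spread between arrays of the main median, some of them with the sign turned, as given with the lists. The slide block could not be estimated beside the dye term, so it was run without it, a choice made after seeing the data. Its fitted correlation within a slide was negative, at -0.275. In that run limma's unadjusted p was under 0.05 for 1855 probes higher and 1475 lower, against 838 and 425 in the main fit. The smaller p of ENG there thus came with smaller p-values over the whole array. Requiring both channels above background on all arrays left no SELE or SELP value. The fit on ratios within each array already pairs an adiponectin with an untreated RNA, so there was no unpaired fit to set a block against. Signal over background limits SELE, the dim VWF and NOS3 probes and SELP on array 1.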
